A study of Mus musculus with 4 samples.

Results

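Langerin and related uptake lectins were followed in cultured Langerhans cells that lack or carry the aryl hydrocarbon receptor. The group held 9 genes, chosen by name as C-type lectin receptors of Langerhans cells and related phagocytes, out of 12393 genes with a probe set of their own on the array. They were langerin (Cd207), DEC-205 (Ly75), the mannose receptor (Mrc1), dectin-1 (Clec7a), dectin-2 (Clec4n), the macrophage C-type lectin (Clec4d), the dendritic cell immunoreceptor (Clec4a2), the galactose-type lectin Clec10a, and Cd209a, a mouse relative of DC-SIGN. All 9 were measured, by the 11 probe sets that the platform annotation gives to a listed gene alone. A probe set that the annotation shares between Clec4b1 and Clec4a2 was left out.

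The study set Langerhans cells of mice deficient for the aryl hydrocarbon receptor (AhR; the Ahr gene without exon 2) beside those of wild-type C57BL/6 mice, with 2 arrays per genotype and 4 in all. No mouse was treated. Ear epidermis was cultured for 16 hours, the labels differing on whether as sheets or as a cell suspension. From a light fraction with 20 to 35% Langerhans cells, living MHC class II-positive cells were then sorted to a purity above 95%. Replicates are called biological in the labels, with no word on mice per sample. The p-values set a difference against the spread between these samples, moderated over all probe sets, and that spread may be partly technical. The deletion is not described as limited to any cell type. The sex and age of the mice and the background strain of the deficient mice are not stated in the labels. Since the cells are sorted and then pooled on an array, fewer cells of a type and less RNA per cell cannot be told apart.

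C-type lectins are surface proteins with a carbohydrate recognition domain, which in most of them binds sugars with the help of calcium. Some mainly carry their cargo inwards: langerin drives the formation of Birbeck granules, the rod-shaped organelles by which Langerhans cells are recognised in electron micrographs, and DEC-205 delivers antigen to the compartments where MHC molecules are loaded. Others signal. Dectin-1 carries its own tyrosine motif and recruits the kinase Syk, dectin-2 and Clec4d signal through the Fc receptor gamma chain, and Clec4a2 carries an inhibitory motif that recruits phosphatases such as Ptpn6.

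The promoter of 3 members is shown because each stands for a different result: Cd207 identifies the cell type, Clec4d differed most between genotypes, and Ly75 was the only member window that holds the core letters recognised by AhR. Each sequence is the 250 bases before the annotated gene start, from RefSeq genes of GRCm38.p6, written 5' to 3' on the gene's own strand. The window of Cd207 is chr6:83677858-83678107 on the minus strand, Clec4d at chr6:123261857-123262106 on the plus strand and Ly75 at chr2:60383274-60383523 on the minus strand. Capitals mark matches, on either strand, to GCGTG (the AhR core), GAGGAA (the core bound by PU.1, a myeloid factor, which reads TTCCTC on the other strand) and TGACTCA (the AP-1 site); no matches overlap in these windows.
Cd207: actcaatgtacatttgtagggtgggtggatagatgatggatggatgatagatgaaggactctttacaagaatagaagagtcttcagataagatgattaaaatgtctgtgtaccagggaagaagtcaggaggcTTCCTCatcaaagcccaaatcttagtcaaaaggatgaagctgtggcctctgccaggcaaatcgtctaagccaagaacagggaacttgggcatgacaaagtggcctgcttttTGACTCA
Clec4d: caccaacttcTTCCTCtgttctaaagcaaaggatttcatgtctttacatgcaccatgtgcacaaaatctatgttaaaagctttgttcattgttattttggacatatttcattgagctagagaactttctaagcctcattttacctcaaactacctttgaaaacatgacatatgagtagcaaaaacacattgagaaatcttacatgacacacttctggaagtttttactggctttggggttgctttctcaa
Ly75: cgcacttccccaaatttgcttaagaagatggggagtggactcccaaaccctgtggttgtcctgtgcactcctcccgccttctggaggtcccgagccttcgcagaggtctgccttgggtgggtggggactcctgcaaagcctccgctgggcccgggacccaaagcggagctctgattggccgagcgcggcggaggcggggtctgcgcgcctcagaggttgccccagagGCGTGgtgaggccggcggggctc

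Windows were read for 7 of the 9 members. GCGTG was found in 1 of the 7, Ly75, starting 23 bases before the gene start, and in 28.2% of all 32851 windows of this length. GAGGAA was found in 4 of the 7 (Cd207, Clec4d, Clec7a and Mrc1) and in 23.3% of all windows. TGACTCA was found in 1 of the 7, Cd207, where it fills the last 7 bases before the start, and in 4.46% of all windows. A match describes letters and not a bound site, and the 7 windows are few.

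All values that follow are log2 signals, on which a rise by 1 doubles the signal, and differences are AhR-deficient minus wild-type with the standard error (SE) and 95% interval of limma. The Ahr gene itself gave 8.55 and 8.60 in the AhR-deficient arrays and 7.61 and 8.23 in the wild-type arrays. Its probe sets are not placed inside or outside the deleted exon here, so they do not check the labels. Ahrr, the AhR repressor and a known AhR target, gave 5.32 and 5.10 against 8.26 and 8.38 and fell by 3.11 (SE 0.11, limma adjusted p = 0.0403), a call that is lost when any 1 array is left out, with the replicate number or a crossed pairing as a block, and with 16 added to the linear signals. The array medians lay between 5.60 and 5.63, and a signal under an array's 25th percentile, 4.54 to 4.57, is called dim below. The median SE over all probe sets was 0.10, and with 2 arrays against 2 an exact permutation test of a single gene cannot give a p below 0.333.

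Of the 11 lectin probe sets, 0 passed limma's test at an adjusted p under 0.05, beside 0.0177% of all 22626 probe sets. At an unadjusted p under 0.05 in limma, 2 of the 9 genes were higher in AhR-deficient cells (Clec4d and Clec10a) and 0 lower, beside 3.5% of all genes higher and 3.04% lower. Both AhR-deficient arrays lay above both wild-type arrays for 3 of the 9 genes, Clec4d, Clec4a2 and Clec10a, and below for 0. Over all genes, 18.8% lay above and 16.6% below, 35.4% together. The share among the lectins is thus near that of genes in general. The median difference over the 9 genes, each by its brightest probe set, was 0.17, beside 0.01 over all genes. The difference was positive for 7 of the 9, beside 52.2% of all genes.

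Single arrays also differed within a genotype. The 4 arrays spanned at least 1 log2 unit for 3 of the 9 genes (Cd207, Clec4d and Clec4n), beside 3.35% of all genes. For 4 of the 9 (Ly75, Clec4a2, Clec4d and Clec4n), AhR-deficient replicate 1 was the highest and wild-type replicate 1 the lowest array, an order held by 13.3% of all genes. Neither share was tested, and the array order was read from the lectin values rather than set in advance.

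**Figure D1:**
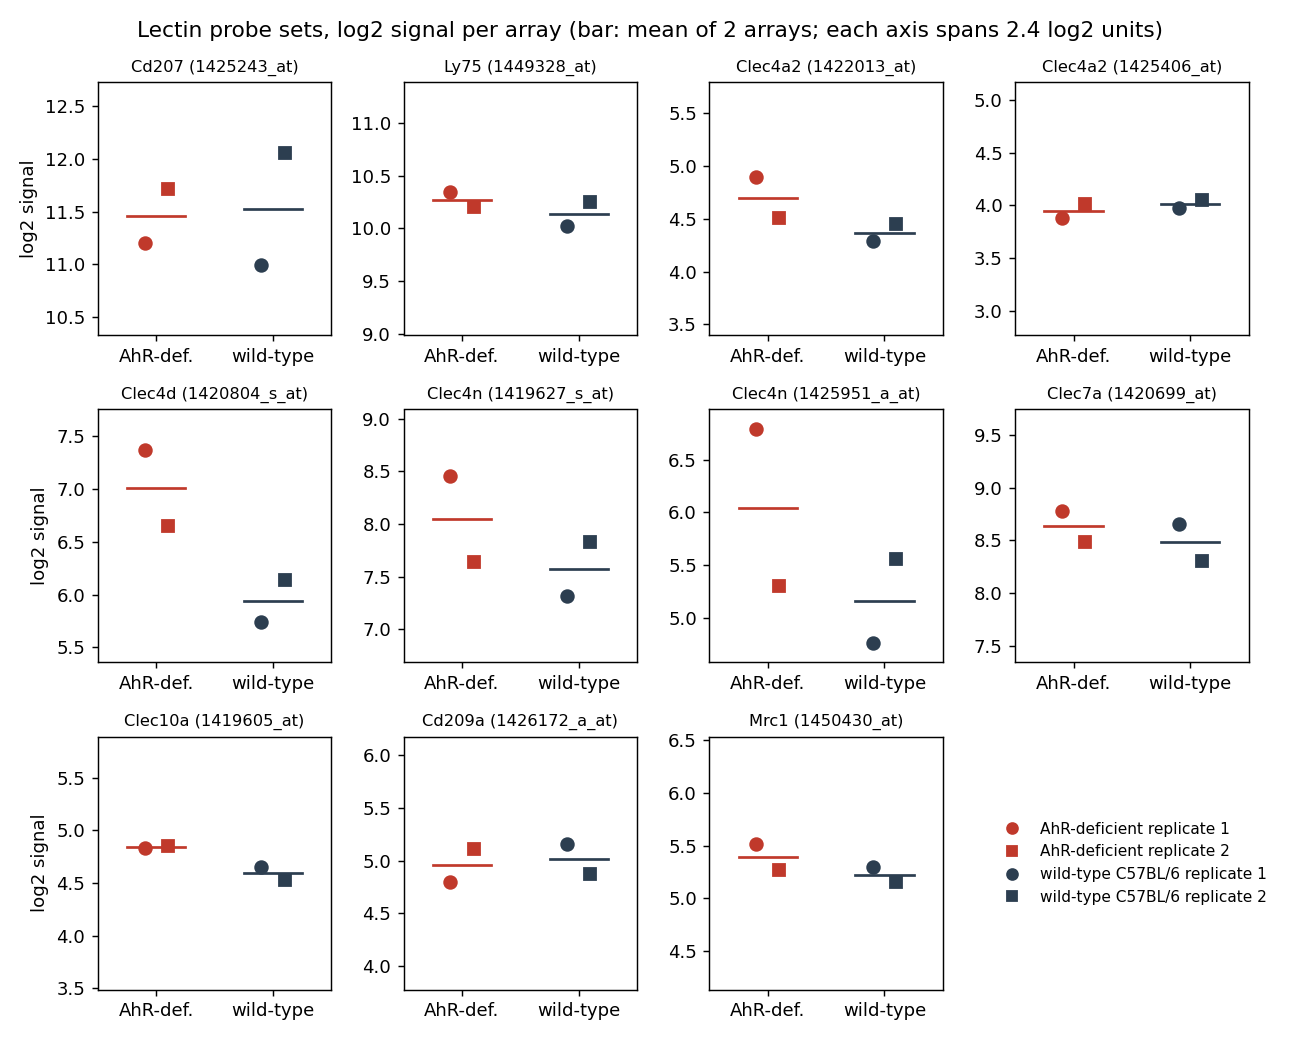
Log2 signal of each lectin probe set on the 4 arrays (vertical axis, 2.4 log2 units in every panel), with circles for replicate 1, squares for replicate 2 and a bar at the mean of the 2 arrays. Clec4d shows the widest separation of genotypes, from 6.65 and 7.37 down to 5.74 and 6.14, while the wild-type arrays of Cd207, at 11.00 and 12.06, lie on either side of the AhR-deficient ones.

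The receptors that Langerhans cells are best known for, langerin and DEC-205, showed no genotype difference beyond the spread between arrays, and the data set different bounds on each. Langerin gave signals of 11.21 and 11.71 in AhR-deficient cells against 11.00 and 12.06 in the wild type. The wild-type arrays were thus both the lowest and the highest of the 4, with the AhR-deficient arrays between them. The gap between the wild-type arrays, 1.06, was far larger than the genotype difference of -0.07 (SE 0.41, limma adjusted p = 0.994). The 95% interval ran from -1.17 to 1.03, or from 0.444-fold to 2.05-fold, so a change by a factor of 2 lies within it.

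DEC-205, an endocytic receptor of the mannose receptor family, was much tighter. Its Ly75 signals were 10.35 and 10.20 in AhR-deficient cells against 10.03 and 10.25 in the wild type, and the genotypes overlapped. The difference was 0.13 (SE 0.12, limma adjusted p = 0.911), with an interval of -0.18 to 0.45, or 0.881-fold to 1.37-fold. Ly75 is also the member whose promoter window above holds the AhR core.

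The order of the arrays by langerin, wild-type replicate 2 over AhR-deficient replicate 2 over AhR-deficient replicate 1 over wild-type replicate 1, was the reverse of the order of 3' over 5' signal for the Gapdh control, an index of how far the labelled RNA is biased to its 3' end. That log2 ratio was 1.97 on wild-type replicate 2, 2.19 and 2.24 on AhR-deficient replicates 2 and 1, and 2.60 on wild-type replicate 1. For the Actb control, wild-type replicate 1 again had the largest ratio (3.16), while AhR-deficient replicate 1 had the lowest (2.34) and the others 2.61 and 2.65. The part of RNA quality in the langerin values was not tested.

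Other markers of Langerhans cells were read as well. Beside langerin and DEC-205, which are themselves on the marker list, 15 markers were listed and 14 were measured. None of these was dim on all 4 arrays, though Cdh1 was dim on 2. Epcam, an adhesion molecule that mouse Langerhans cells carry, gave 11.06 and 10.71 against 11.02 and 11.38, a difference of -0.32 (SE 0.19). It peaked on wild-type replicate 2, as langerin did, but was lowest on AhR-deficient replicate 2, where langerin was above all but wild-type replicate 2. Of the 14, 6 were higher and 3 lower without overlap, beside 18.8% and 16.6% of all genes, and 0 passed limma's adjusted test. An unadjusted p under 0.05 in limma was reached by 4 that were higher and 3 lower, beside 3.5% and 3.04% of all genes. H2-Aa, an MHC class II chain, differed by 1.31 (SE 0.14), and its partner Cd74 by 0.93 (SE 0.12). The 3 lower without overlap were Csf1r (-1.05, SE 0.26), Tgfbr2 (-0.675, SE 0.165) and Cd24a (-0.43, SE 0.09). The summed linear signal of the 14 markers, taken to log2, was 14.20 and 14.05 in AhR-deficient cells against 13.72 and 13.94 in the wild type. With langerin and DEC-205 it was 14.46 and 14.39 against 14.02 and 14.38. H2-Aa, the brightest of the 14 on the AhR-deficient arrays, weighs on these sums, with 12.47 and 12.32 against 11.25 and 10.92. The cells were sorted as MHC class II-positive, and a sum without the MHC class II genes was not taken.

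Other genes had array profiles close to langerin's. Likeness was measured over the 4 arrays as the root mean square difference between log2 profiles centred on their own means. Nearest were Odc1, which makes putrescine in polyamine synthesis (0.107), Rpf1, a ribosome assembly factor (0.110), and Gtpbp4, a nucleolar GTPase (0.112). All had their highest array at wild-type replicate 2 and their lowest at wild-type replicate 1. With 4 arrays and 12393 genes, close profiles are a description only.

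**Figure D2:**
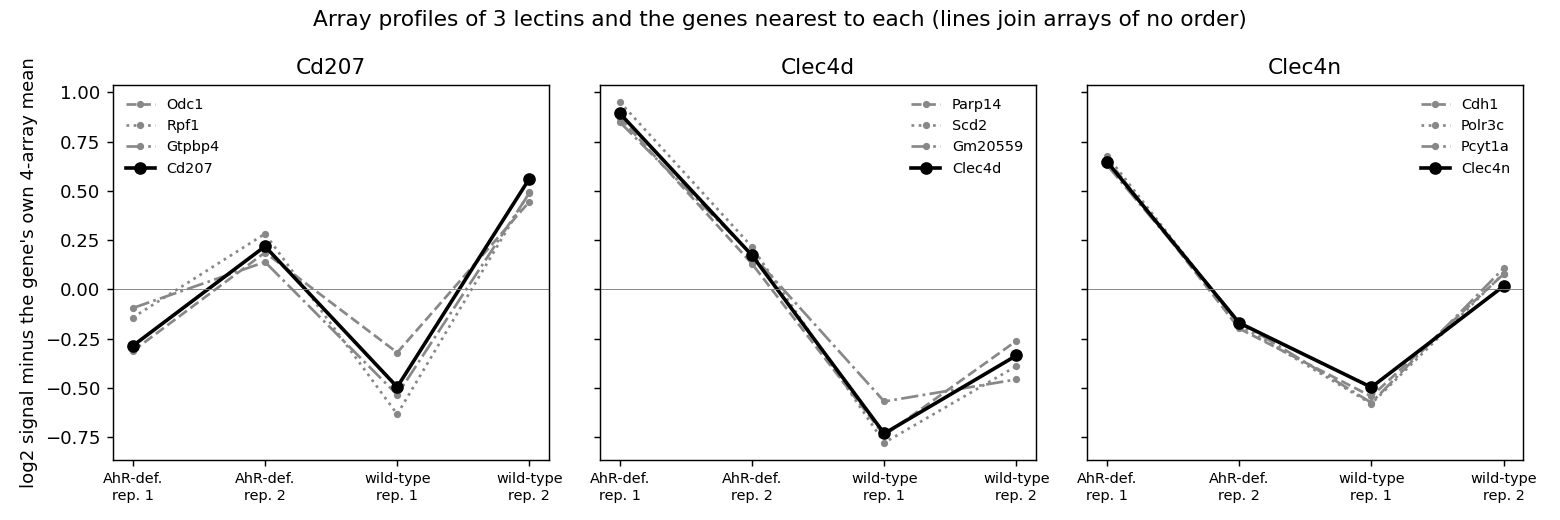
Log2 signal minus each gene's own mean (vertical axis) on the 4 arrays (horizontal axis) for Cd207, Clec4d and Clec4n in black and the 3 genes nearest to each in grey; the lines only join points of a gene. Cd207 was highest on wild-type replicate 2, whereas Clec4d and Clec4n were highest on AhR-deficient replicate 1, and all 3 were lowest on wild-type replicate 1.

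Among the lectins that signal through the Fc receptor gamma chain, Clec4d had the greatest difference of all 9 genes. This receptor for mycobacterial glycolipids gave 7.37 and 6.65 in AhR-deficient cells against 5.74 and 6.14 in the wild type. Both AhR-deficient arrays lay above both wild-type arrays, with replicate 1 of the AhR-deficient pair the highest. The difference was 1.07 (SE 0.29, interval 0.28 to 1.85), or 2.09-fold, and did not pass over all probe sets (limma adjusted p = 0.710). Leaving out AhR-deficient replicate 1 gave 0.71 and leaving out replicate 2 gave 1.43, while leaving out wild-type replicate 1 or 2 gave 0.87 and 1.26.

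Dectin-2, a receptor for fungal mannans, is encoded by the neighbouring gene Clec4n. Its brighter probe set gave 8.46 and 7.64 in AhR-deficient cells against 7.31 and 7.83 in the wild type. The other gave 6.79 and 5.30 against 4.76 and 5.56. The probe sets put the arrays in the same order: AhR-deficient replicate 1 stood above the rest, wild-type replicate 2 came next and wild-type replicate 1 was lowest, so the genotypes overlapped. The differences were 0.48 (SE 0.34) and 0.88 (SE 0.58), with limma adjusted p of 0.899 and 0.897. Without AhR-deficient replicate 1 they were 0.07 and 0.14.

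The probe sets of Clec4d and the brighter one of Clec4n end in _s_at, a suffix for sets whose probes can match several transcripts, which may be of different genes. The annotation names a single gene for each. Probe sequences were not used here, so cross-matching within this gene cluster was not tested.

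Clec4e (mincle), the partner of Clec4d and the next protein-coding gene on chromosome 6, is not among the 9. It gave 6.70 and 5.96 in AhR-deficient cells against 5.46 and 5.23 in the wild type, so it too was highest on AhR-deficient replicate 1 and did not overlap. Its difference was 0.98 (SE 0.27, limma adjusted p = 0.718), and 0.25 (SE 0.08) by its other probe set, which was dim on all 4 arrays. The promoter window of Clec4e held GCGTG, starting 93 bases before the gene start, as 28.2% of all windows do. Those of Cd302 and Mgl2, also read outside the group, held none. The genes nearest to Clec4d in profile were Parp14 (root mean square difference 0.0448), Scd2, a fatty acid desaturase (0.0506), and Gm20559 (0.104). Nearest to Clec4n were Cdh1, which encodes E-cadherin (0.0418), Polr3c, an RNA polymerase III subunit (0.0551), and Pcyt1a, an enzyme of phosphatidylcholine synthesis (0.0606).

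Dectin-1, the receptor for fungal beta-glucans, showed no such separation. Clec7a signals were 8.78 and 8.49 in AhR-deficient cells against 8.66 and 8.30 in the wild type, interleaved by genotype. The difference was 0.15 (SE 0.17, interval -0.32 to 0.62, limma adjusted p = 0.934).

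The shared signalling chain of dectin-2, Clec4d and mincle did not follow Clec4d. Fcer1g, the Fc receptor gamma chain, gave 7.40 and 7.34 in AhR-deficient cells against 7.65 and 7.21 in the wild type, which overlapped (difference -0.06, SE 0.17). The related adaptor Tyrobp differed by -0.02 (SE 0.31). Syk, the kinase that these chains and dectin-1 recruit, gave 7.35 and 6.92 against 6.78 and 6.69, without overlap, a difference of 0.40 (SE 0.17, limma adjusted p = 0.857); its other probe sets overlapped, at 0.22 (SE 0.13) and -0.04 (SE 0.10). The adaptor gene Card9 had no probe set of its own.

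Of 26 measured genes downstream of the lectins (31 listed), 0 passed limma's adjusted test, 2 were above and 0 below the wild type at an unadjusted p under 0.05, and 6 were higher and 1 lower without overlap. Their median was 0.02. The smallest p-values were those of Il1b, the cytokine interleukin-1 beta, and Rel, an NF-kB subunit. Il1b gave 11.66 and 11.96 against 10.98 and 10.25, a difference of 1.19 (SE 0.28, limma adjusted p = 0.670), and Rel differed by 0.61 (SE 0.22). Many signals feed into both, so neither is a readout of lectins alone.

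Clec4a2, the inhibitory receptor, had little signal. Its brighter probe set gave 4.90 and 4.50 in AhR-deficient cells against 4.29 and 4.45 in the wild type. The genotypes did not overlap, but only AhR-deficient replicate 1 was above the dim limit, and the difference was 0.33 (SE 0.16, limma adjusted p = 0.869). The other Clec4a2 probe set was dim on all 4 arrays and lay between 3.88 and 4.05, with a difference of -0.07 (SE 0.09). Ptpn6, the phosphatase that such inhibitory receptors engage, differed by 0.10 (SE 0.11) and, by its other probe set, by -0.07 (SE 0.29).

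The sugar receptors more usual for macrophages and dermal dendritic cells gave low signals. Clec10a, which binds galactose-type sugars, gave 4.83 and 4.85 in AhR-deficient cells against 4.65 and 4.53 in the wild type. The arrays did not overlap and those of a genotype were close, but the difference was only 0.25 (SE 0.08, interval 0.02 to 0.48, limma adjusted p = 0.810), and wild-type replicate 2 was dim. Mrc1, the mannose receptor, gave 5.51 and 5.27 against 5.30 and 5.15, which overlapped (0.17, SE 0.12, interval -0.16 to 0.49). Cd209a gave 4.80 and 5.11 against 5.15 and 4.87, also overlapping (-0.05, SE 0.16, interval -0.50 to 0.39). Values this low may understate a change.

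**Figure D3:**
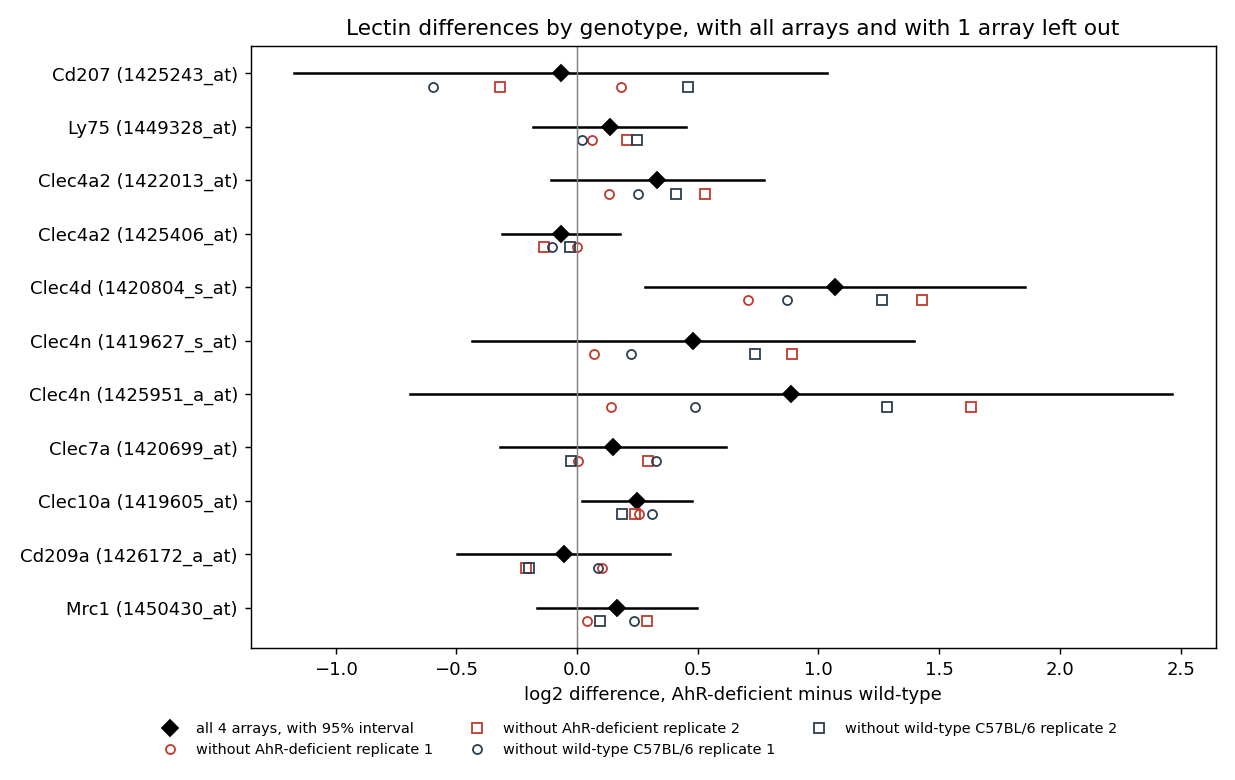
Log2 difference, AhR-deficient minus wild-type (horizontal axis), of each lectin probe set (rows): black diamonds and lines give the value and 95% interval with all 4 arrays, open symbols the value with 1 array left out. The interval lies above 0 for Clec4d and Clec10a before adjustment over all probe sets, and the Cd207 value moves from -0.60 to 0.46 depending on the array left out.

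The lectin genes sit in clusters, and their neighbours gave a mixed picture. Cd207, Clec4a2, Clec4n, Clec4d and Clec7a are all on chromosome 6, Ly75 and Mrc1 on chromosome 2, Clec10a on chromosome 11 and Cd209a on chromosome 8, per RefSeq genes of GRCm38.p6. Of the protein-coding genes next to a member, 9 were measured C-type lectins outside the group. Without overlap, 3 of them were higher in AhR-deficient cells (Cd302, Clec4e and Mgl2), 3 were lower (Clec4f, Clec4g and Cd209e), and 3 overlapped (Pla2r1, Clec4b1 and Olr1). Over all genes, 18.8% were higher and 16.6% lower without overlap.

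Cd302, next to Ly75, gave 6.20 and 5.81 in AhR-deficient cells against 5.12 and 4.91 in the wild type. All values of the AhR-deficient cells were higher, by 0.99 on average (SE 0.17, limma adjusted p = 0.533), while Ly75 itself overlapped. Mgl2, next to Clec10a and a close relative of it, gave 5.97 and 6.11 against 5.51 and 5.23, a difference of 0.67 (SE 0.13, limma adjusted p = 0.571). Clec10a was higher without overlap as well, by a smaller amount. Because the Mgl2 and Clec10a sequences are so alike, signal could be shared between their probe sets, which was not tested. The 3 neighbours that were lower differed by only -0.14 to -0.22.

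Over all 27 measured C-type lectins outside the group (36 listed), 0 passed limma's adjusted test. At an unadjusted p under 0.05, 3 were higher (Cd302, Mgl2 and Clec4e) and 0 lower, and 6 were higher and 7 lower without overlap. Their median was -0.02, and 8 of the 27 were dim on all 4 arrays. The gene with the next smallest p, Clec2d, a ligand of a natural killer cell receptor, gave 4.66 and 4.59 in AhR-deficient cells against 5.85 and 4.94 in the wild type (-0.77, SE 0.32), its value resting largely on wild-type replicate 1.

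Genes of clathrin uptake and endosomes, which carry lectins inward and back to the surface, showed little difference between genotypes at their median. Of 28 measured (30 listed), 0 passed limma's adjusted test, 0 were above and 1 below the wild type at an unadjusted p under 0.05, 6 were higher and 3 lower without overlap, and the median was 0.00. The gene lower at that level was Rab5a, a GTPase of early endosomes, with 8.85 and 8.80 against 9.09 and 9.11 (-0.28, SE 0.08, limma adjusted p = 0.710). Ap2s1, a subunit of the clathrin adaptor, differed by -0.24 (SE 0.11). The widest difference of the list, picked after the values were seen, was that of Lamp1, which was higher without overlap. It gave 10.88 and 10.83 against 9.95 and 10.73 (0.52, SE 0.28). Rab11a, which recycles langerin to the surface, gave 8.07 and 8.49 against 8.08 and 8.49.

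Uptake receptors of other families included a few wide differences. Of 25 measured (27 listed), 0 passed limma's adjusted test, 4 were above and 0 below the wild type at an unadjusted p under 0.05, 8 were higher and 3 lower without overlap, and the median was 0.04. Cd68, a lysosomal protein of phagocytes, gave 8.53 and 8.34 against 7.08 and 7.55 (1.12, SE 0.19), and the scavenger receptor Marco differed by 0.56 (SE 0.10).

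**Figure D4:**
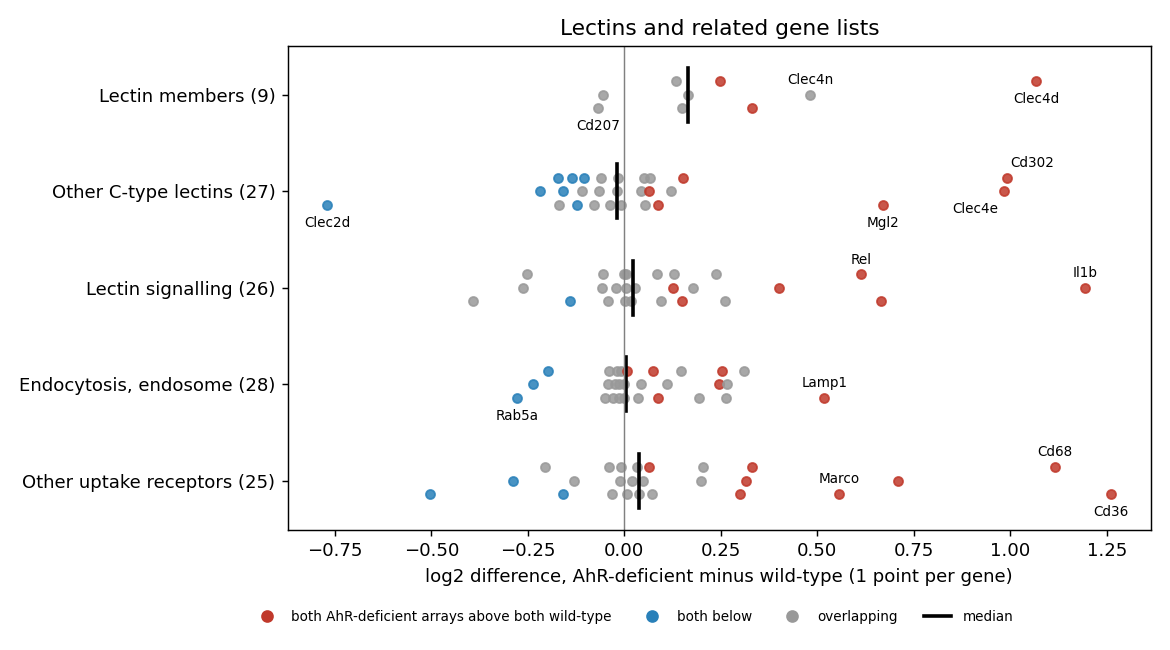
Log2 difference, AhR-deficient minus wild-type (horizontal axis), 1 point per gene by its brightest probe set, for the 9 lectins and 4 related gene lists (rows); colour shows whether the arrays of the genotypes overlap and a black bar marks the median. Medians lie at 0.17 for the lectins and between -0.02 and 0.04 for the other lists, and Clec4d stands apart from the other lectins of its group.

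Other cells that could be among the sorted ones were followed by their markers. Of 17 measured monocyte and macrophage markers (19 listed), 7 were higher and 2 lower without overlap, 3 were above and 1 below the wild type at an unadjusted p under 0.05 and 0 passed limma's adjusted test, with a median of 0.07. C1qb differed by 1.16 (SE 0.27), while Csf1r, the receptor for colony-stimulating factor 1, differed by -1.05 (SE 0.26). Adgre1, the other marker that was lower without overlap, gave 6.92 and 5.84 against 7.11 and 7.43 (-0.89, SE 0.39). Lyz2 gave 7.48 and 6.47 against 6.18 and 5.92, and Cd14 gave 7.54 and 6.78 against 6.46 and 6.44, each highest on AhR-deficient replicate 1 like Clec4d. The summed signal of the 17 markers was 11.53 and 11.11 in AhR-deficient cells against 11.55 and 12.07 in the wild type. Csf1r, which the Langerhans cell list also holds, was the brightest of them, and without it the sum of the other 16, chosen after seeing the data, turned in direction, to 10.52 and 10.08 against 9.72 and 9.95. Cd163, Lyve1, F13a1 and Fcgr1, which mark resident macrophages or monocyte-derived cells, were dim on all 4 arrays.

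Markers of keratinocytes, the main cells of the epidermis, were read in the same way. Of 21 measured (23 listed), 9 were higher and 2 lower without overlap, 2 were above and 0 below the wild type at an unadjusted p under 0.05 and 0 passed limma's adjusted test, with a median of 0.20. Dsp gave 6.60 and 5.45 against 4.47 and 4.93, and Krt14 gave 5.55 and 4.96 against 4.60 and 4.76. The summed signal was 10.63 on AhR-deficient replicate 1, the array with the highest Clec4d and Clec4n, and 9.97, 9.79 and 9.88 on AhR-deficient replicate 2 and wild-type replicates 1 and 2. Lor, the brightest of these markers on AhR-deficient replicate 1, weighs on that sum. It gave 8.53 and 6.72 in AhR-deficient cells against 6.72 and 6.91 in the wild type, which overlapped. Krt15, Krt17, Sfn, Col17a1 and Ivl were dim on all 4 arrays. Of 16 measured markers of dermal dendritic cells (17 listed, with Clec10a and Cd209a among them), 6 were higher and 3 lower without overlap, 5 were above and 2 below at an unadjusted p under 0.05 and 0 passed limma's adjusted test, with a median of 0.08, and their sum was 11.45 and 11.21 against 11.21 and 11.34. The part of these cells in the lectin values was not tested.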

How the data were processed

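The authors deposited 1 log2 signal for each probe set of 4 Affymetrix MOE430A arrays, hybridised with amplified and biotinylated RNA per the labels' protocols. These came from affy and RMA, per the submitters' processing notes, so arrays were quantile-normalised before deposit. No further scaling was applied, and no 2 arrays held identical values. After 64 control probe sets were left out, 22626 were tested. The annotation gave 1 gene to 20380 of them, several to 691 and none to 1555. Through Entrez identifiers 20351 matched RefSeq, with 0 symbols changed.

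The main test was that of limma 3.58.1, run in R 4.3.3 (lmFit, eBayes, two-sided, residual degrees of freedom 2, prior 2.27), adjusted by Benjamini-Hochberg over all probe sets and called at 0.05. Each gene in a list was represented by its brightest probe set. The members, the 12 lists and the motifs were chosen with earlier results of these data, or the promoter sequences, known. Named were all member probe sets, the 2 genes of each list with the smallest p (4 for other lectins), a fixed set of pathway and cell marker genes, and the 3 genes nearest in profile to Cd207 and to members spanning at least 1 log2 unit. Genes shown beside them as neighbours, partners or markers were chosen after their values were seen. The steps were tested on simulated data. The alternatives comprised a robust eBayes fit, a variance trend, the replicate number as a block, a filter on dim probe sets, repeated quantile normalisation, median centring, array weights, adding 16 on the linear scale, other probe set rules and leaving out each array.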

Additional observations from a re-analysis of the deposited data

How the results depend on the processing

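Under the 12 other settings that gave member differences, no lectin passed the threshold (130 values, smallest adjusted p 0.521, without AhR-deficient replicate 2). Direction held in 124 of them. The other 6 changed sign or, for the dimmer probe set of Clec4a2, were 0 after rounding, all with an array left out. There the difference ranged from -0.60 to 0.46 for Cd207 and from -0.21 to 0.10 for Cd209a. It ranged from -0.027 to 0.33 for Clec7a and from -0.135 to 0 for that Clec4a2 probe set. With an array left out, the median over the 9 lectins ranged from 0.10 to 0.29, and the number without overlap from 3 to 8. Overlap is rarer with 3 arrays for any gene. The 35.4% of all genes without overlap was counted with 4 arrays only, so 3 to 8 has no share over all genes to stand beside. The other settings gave medians of 0.14 to 0.17 and 3 lectins without overlap, except for 2 with dim probe sets left out and 2 without the _s_at and _x_at sets. Over all probe sets, 4 were called, against 8 with a trend, 0 with 16 added and 0 without any 1 array. With the replicate block 0 were called; it changed no lectin's call. Arrays sharing a number did not deviate together (correlation -0.309), and the labels state no pairing. A crossed pairing, chosen after seeing the data, also gave 0. The number of arrays, 2 per genotype, and dim signals of Clec4a2 and Clec10a limit what could be detected.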

Other observations

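The probe set shared by Clec4b1 and Clec4a2 gave log2 signals of 4.10 and 4.25 in AhR-deficient cells against 4.17 and 4.05 in the wild type, dim on all 4 arrays.

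Marker lists of cells not described above gave these values. Over all genes, 18.8% were higher and 16.6% lower without overlap. Of 17 measured T cell markers (22 listed), 0 were higher and 7 lower in AhR-deficient cells without overlap, with a median of -0.07. Of these 17, 0 passed limma's adjusted test and 5 were lower at an unadjusted p under 0.05, beside 3.04% of all genes. Cd3g, a chain of the T cell receptor complex, gave 4.51 and 4.26 against 5.80 and 5.50 (-1.26, SE 0.15), and Cd2 differed by -0.70 (SE 0.12). The summed T cell signal was 9.63 and 9.74 in AhR-deficient cells against 9.93 and 9.81 in the wild type. Of 12 neutrophil markers, 3 were higher and 2 lower without overlap (median -0.02); S100a8 and S100a9 were dim on all 4 arrays, and Il1r2, a decoy receptor for interleukin-1, differed by -0.91 (SE 0.17) and Mmp9 by 0.13 (SE 0.08). Of 8 B cell markers, 2 were higher and 0 lower without overlap (median -0.03), with Cd79b at 0.20 (SE 0.10) and Pax5 at -0.27 (SE 0.15). Of 10 mast cell markers, 3 were higher and 2 lower without overlap (median -0.00), with Kit at -0.64 (SE 0.12) and Mcpt4 at 0.18 (SE 0.09). Among dermal dendritic cell markers, Itgae, an integrin chain, differed by -0.34 (SE 0.09). In the keratinocyte list Pkp1, a desmosome protein, differed by 0.40 (SE 0.12).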
